A study of Mus musculus with 36 samples.

Results

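The monocyte and macrophage genes described here are C1qa, C1qb, C1qc, Lyz2, Csf1r, Adgre1, Cx3cr1, Cd68, Cd14 and Mrc1, 10 of the 17097 genes measured. Each was taken by its symbol and represented by 1 probe set, the brightest by its mean over all 36 arrays. Only Cx3cr1 had a second probe set, with a mean intensity of 8.86, against 47.9 for the one used. The arrays measured colon RNA of mice lacking IL-17RC (KO) and of wild-type mice (WT). An age of 6 to 8 weeks is labelled for every group, tumors included, and was not read as the age at sampling. IL-17RC pairs with IL-17RA to form the receptor through which IL-17A and IL-17F act. Both genotypes were untreated, or had received the carcinogen azoxymethane (AOM) and then dextran sulfate sodium (DSS), a polymer that damages the colon epithelium. The full course had 3 cycles, each with 3% DSS in the drinking water for 5 days and 14 days on normal water. The groups were KO and WT untreated (4 arrays each), KO and WT at day 7 of the course (4 each), KO and WT at day 15 (4 each) and KO and WT with tumors at day 63 (6 each). Colon is the labelled tissue of every group, tumors included, and nothing further on how the tumors were sampled, on the KO allele or on separate animals is stated, so the p-values reflect only how these samples vary, which may be technical.

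Monocytes leave the blood and mature into macrophages in the gut wall, where they clear dying cells and bacteria. In the colon this supply continues through adult life, and more monocytes enter when the epithelium is injured. C1q, the recognition part of the first complement component, is assembled from chains encoded by C1qa, C1qb and C1qc and is made largely by macrophages. Lyz2 encodes the lysozyme of macrophages and neutrophils, which cuts bacterial cell walls. Csf1r is the receptor for the growth factors CSF1 and IL-34, on which most tissue macrophages depend. Adgre1 encodes F4/80, a surface marker of mouse macrophages, and Cx3cr1 the receptor for fractalkine. Cd68 encodes a lysosomal glycoprotein, Cd14 a co-receptor for bacterial lipopolysaccharide and Mrc1 the mannose receptor CD206.

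The windows shown are those of genes whose values the results turn on, the C1q genes, neighbours on chromosome 4 with closely similar values, and Lyz2 on chromosome 10, which departed from them in tumors. They run from 250 bases before to 50 bases after the annotated start, on the minus strand of GRCm38.p6, from RefSeq: chr4:136886151-136886450 for C1qb, chr4:136892865-136893164 for C1qc and chr10:117282223-117282522 for Lyz2. Capitals mark GAGGAA, the core of the binding motif of the myeloid factor PU.1, or its reverse complement TTCCTC, which were the letters searched.
C1qb: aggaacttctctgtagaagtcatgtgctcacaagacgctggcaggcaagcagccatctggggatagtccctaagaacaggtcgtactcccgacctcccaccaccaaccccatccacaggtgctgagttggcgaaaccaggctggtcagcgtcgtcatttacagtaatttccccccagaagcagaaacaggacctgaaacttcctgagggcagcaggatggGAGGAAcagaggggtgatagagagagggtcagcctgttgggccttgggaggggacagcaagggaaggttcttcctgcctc
C1qc: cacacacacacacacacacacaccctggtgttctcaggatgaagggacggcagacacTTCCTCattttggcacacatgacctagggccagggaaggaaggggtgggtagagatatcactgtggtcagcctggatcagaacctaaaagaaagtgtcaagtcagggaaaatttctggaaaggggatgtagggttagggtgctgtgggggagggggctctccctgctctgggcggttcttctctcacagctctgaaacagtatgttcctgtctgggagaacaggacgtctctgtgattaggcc
Lyz2: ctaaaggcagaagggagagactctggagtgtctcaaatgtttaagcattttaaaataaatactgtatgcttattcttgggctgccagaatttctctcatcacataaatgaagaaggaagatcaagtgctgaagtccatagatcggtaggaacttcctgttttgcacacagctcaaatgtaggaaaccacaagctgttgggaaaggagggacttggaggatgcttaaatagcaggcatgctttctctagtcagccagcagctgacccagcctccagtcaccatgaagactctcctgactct
The match begins 30 bases before the start in C1qb and 193 bases before it in C1qc. The Lyz2 window holds none of these letters. Windows were searched for 6 of the genes, and 4 held a match (C1qb, C1qc, Cd68 and Mrc1). C1qa and Adgre1 had no window in the table used, and Csf1r and Cd14 were left out of the search. Of 32851 windows of this length, 28.3% held a match. Because the 6 genes are not the full set, their share was not compared with that figure. A match is a description of letters and was not read as a site.

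Several arrays bear on the values below. Il17rc lay between 7 and 15 on KO arrays outside day 7, but at 331, 44, 12 and 10 on the arrays labelled KO day 7, against 76 to 515 on WT arrays. Because replicate 1 lies inside the WT range, that group is called by its label throughout. Krt5, a keratin of stratified squamous epithelium, exceeded 100 on 7 arrays, namely replicates 1 and 2 labelled KO day 7, KO tumor replicate 2, and replicates 1 and 4 of WT untreated and of WT day 7. S100a8, abundant in neutrophils, reached 6239 on KO day 15 replicate 4 and 5585 on WT day 15 replicate 4. In whole tissue, fewer macrophages and less RNA per macrophage cannot be told apart.

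Across the 8 groups the genes shared a pattern. Group means on the log2 scale were lowest in arrays labelled KO day 7 for all 10 genes. KO means lay above WT means in untreated arrays and below them at day 7 for all 10 genes. The 3 C1q genes and Mrc1 were highest in KO tumors, Lyz2 and Cx3cr1 in WT tumors, and Csf1r, Adgre1, Cd68 and Cd14 at KO day 15. The step to the next group was 0.01 for Mrc1 (above WT day 15), 0.06 for C1qa (above KO day 15) and 0.96 for Cd14 (above WT day 15). Group means spanned 4.17 log2 units for C1qb, 3.71 for Lyz2 and 3.47 for C1qa, and least for Mrc1 (1.97). Most neighbours in these orders did not differ beyond the spread between arrays. For C1qa, whose within-group SD was 0.70 log2 units, the steps between the 4 highest groups were 0.06, 0.06 and 0.14 (KO tumor, KO day 15, WT tumor, WT day 15). KO untreated lay 0.50 below WT day 15, WT day 7 lay 1.21 below KO untreated, and the arrays labelled KO day 7 lay 1.37 below WT untreated.

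**Figure D1:**
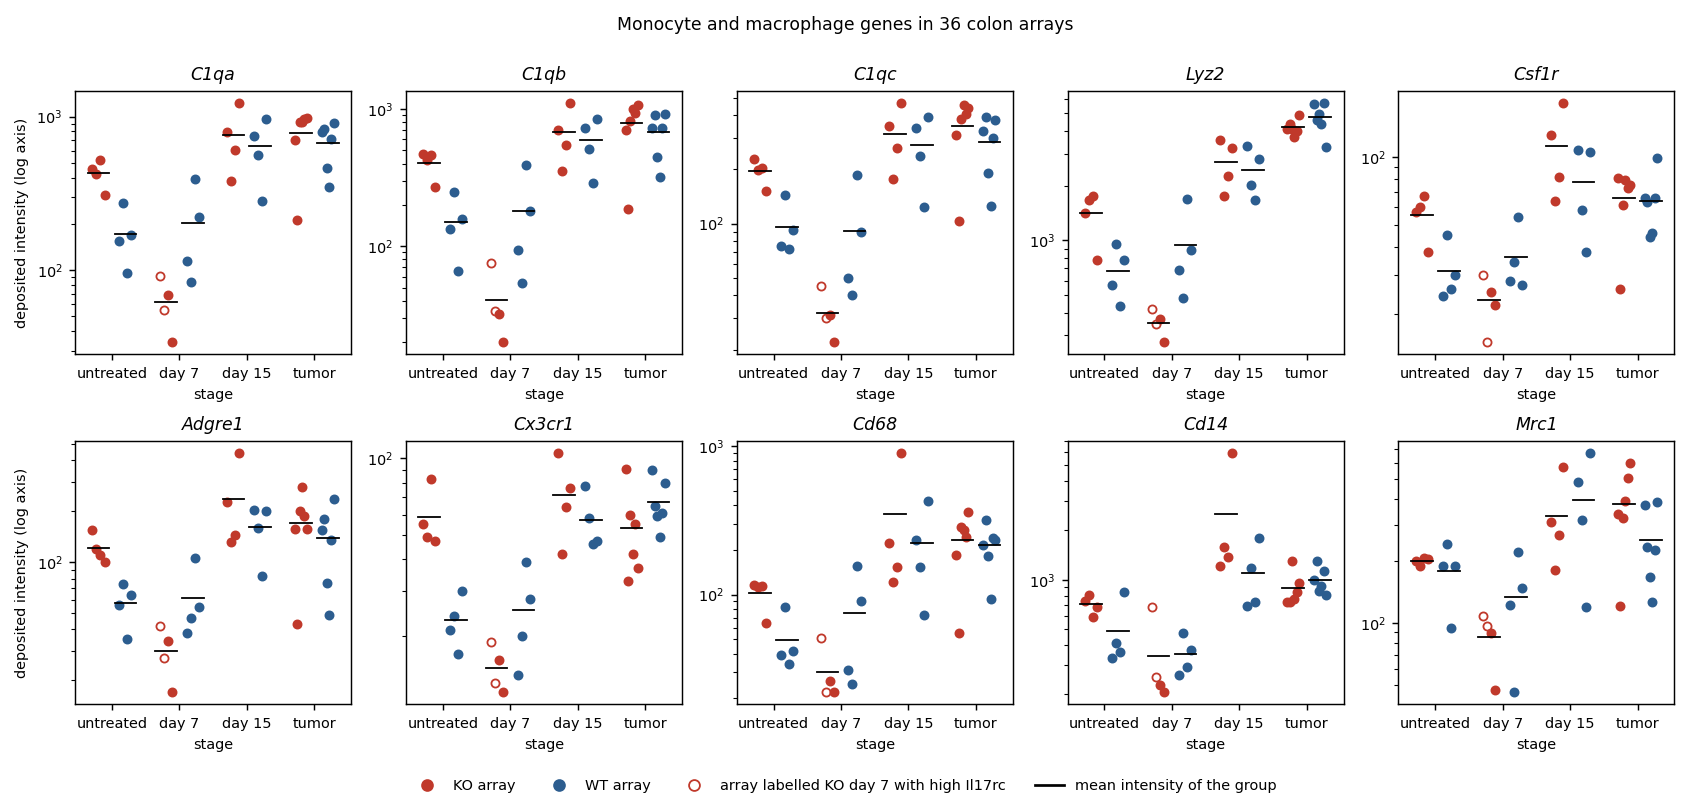
Deposited intensity (log axis) of the 10 genes on each array by stage, with KO left of WT at each stage, bars at group means, and open circles for replicates 1 and 2 labelled KO day 7. Arrays labelled KO day 7 are lowest for most genes (C1qa 34 to 91), and most tumor arrays of both genotypes are the highest for Lyz2 (3702 to 4899 in KO, 3252 to 5716 in WT).

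The first comparison sets the arrays labelled KO day 7 against KO untreated arrays, early in the course. In arrays labelled KO day 7, 9 of the 10 genes fell relative to KO untreated arrays, where 6.55% of all genes tested fell. A gene was called where its limma p, adjusted by Benjamini-Hochberg over all genes, was at most 0.05. Every array labelled KO day 7 lay below every KO untreated array for 9 of the 10, as for 12.3% of all genes. The median log2 difference, on log2(intensity + 1) after quantile normalization, was -1.89 for the 10 genes and 0.01 for all genes. C1qa, the A chain, had intensities of 91, 55, 69 and 34 on arrays labelled KO day 7, against 453, 424, 525 and 311 on KO untreated arrays. Every array labelled KO day 7 was below every KO untreated array. The log2 difference was -2.72 ± 0.46 (SE, adjusted p = 0.00013), a 6.59-fold lower level.

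C1qb, the B chain, had the largest log2 difference of the 10 genes and fell to 75, 34, 32 and 20 on arrays labelled KO day 7, against 468, 423, 463 and 269 on KO untreated arrays (-3.36 ± 0.53, adjusted p = 4.56e-05). C1qc, the C chain, had 45, 30, 31 and 22 on arrays labelled KO day 7, against 227, 198, 204 and 151 on KO untreated arrays (-2.55 ± 0.45, adjusted p = 0.000175). In both chains the groups stood apart, with the array labelled KO day 7 replicate 1 the nearest to the untreated arrays. Lyz2 had 421, 347, 367 and 275 on arrays labelled KO day 7, against 1418, 1670, 1756 and 777 on KO untreated arrays (-1.88 ± 0.29, adjusted p = 3.67e-05). The fractalkine receptor Cx3cr1 had 19, 13, 16 and 12 on arrays labelled KO day 7, close to the array medians of 14 to 16, against 55, 49, 83 and 47 on KO untreated arrays (-1.91 ± 0.30, adjusted p = 3.84e-05). Neither gene's groups overlapped.

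Adgre1 fell by 2.01 ± 0.47 on the log2 scale (adjusted p = 0.00394), with 17 to 42 on arrays labelled KO day 7, against 100 to 154 on KO untreated arrays. Csf1r fell by 1.24 ± 0.34 (adjusted p = 0.0134), and that call ended without the array labelled KO day 7 replicate 2 (-1.04, adjusted p = 0.0712). Cd68 and Cd14 were the weakest calls. Cd68 had 51, 22, 26 and 22 on arrays labelled KO day 7, against 116, 113, 115 and 64 on KO untreated arrays (-1.74 ± 0.59, adjusted p = 0.0488). Cd14 had 681, 254, 228 and 206 on arrays labelled KO day 7, against 744, 810, 589 and 685 on KO untreated arrays (-1.16 ± 0.38, adjusted p = 0.0412). The Cd14 groups overlapped through replicate 1, and 3 arrays labelled KO day 7 lay far below all untreated ones. The Cd68 call ended without any 1 of 6 arrays (KO untreated replicates 1 to 3 and replicates 2 to 4 labelled KO day 7, adjusted p = 0.106 to 0.126), and the Cd14 call without any 1 of 7 (all KO untreated replicates and replicates 2 to 4 labelled KO day 7, adjusted p = 0.057 to 0.14). Mrc1 did not pass (-1.20, 95% interval -2.19 to -0.21, adjusted p = 0.108), although 47 to 108 on arrays labelled KO day 7 lay below 190 to 208 on KO untreated arrays. With replicates 1 and 2 labelled KO day 7 left out, 7 genes were called and the median was -2.02, with Csf1r (adjusted p = 0.0624) and Cd68 (adjusted p = 0.0808) no longer past the threshold. T cell markers moved with these genes, with 4 of 8 measured lower and summed intensities of 106 to 113 on arrays labelled KO day 7, against 181 to 326 on KO untreated arrays. B cell markers were lower for 2 of 7 and summed to 72 to 88 on arrays labelled KO day 7, against 79 to 840 on KO untreated arrays. Of 7 dendritic cell markers measured, Batf3 (-0.58 ± 0.18, adjusted p = 0.0328) and Itgax (-0.75 ± 0.25, 0.043) were lower, and the others were not called. Smooth muscle markers summed to 16751 to 31042 on arrays labelled KO day 7, against 15120 to 16264 on KO untreated arrays, with 1 of 7 higher. The part of these cell types in the result was not tested.

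In WT colons the day 7 arrays overlapped the untreated ones for every gene. None of the 10 genes was called by limma, and 0 had an unadjusted p under 0.05, while 1.66% of all genes were called in either direction. The median log2 difference was 0.16 for the 10 genes and 0.03 for all genes. C1qa had 115, 84, 390 and 221 in WT day 7, against 154, 273, 96 and 169 in WT untreated. Lyz2 had 688, 484, 1691 and 889 in WT day 7, against 564, 953, 433 and 776 in WT untreated. WT day 7 replicate 3 was the highest of its group for all 10 genes but Cd14, and the groups lay across each other. The intervals leave room for change in either direction (-0.81 to 1.08 for C1qa, -0.99 to 1.17 for C1qb, -0.20 to 0.99 for Lyz2). The samples with equal numbers deviated together in this comparison, and the count with replicate number as a block was also 0.

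The difference between the genotypes' day 7 changes was tested as an interaction. It was called for 5 of the 10 genes, all more negative in KO, where 1.73% of all genes were called in that direction. The KO change minus the WT change was -3.46 ± 0.75 for C1qb (adjusted p = 0.008), -2.86 ± 0.66 for C1qa (0.0128), -2.39 ± 0.63 for C1qc (0.0346), -2.27 ± 0.41 for Lyz2 (0.00116) and -2.08 ± 0.42 for Cx3cr1 (0.00373). Adgre1 (-2.18 ± 0.66, adjusted p = 0.0746), Csf1r (-1.57 ± 0.48, 0.0768) and Cd68 (-2.17 ± 0.84, 0.182) had the same sign and did not pass. Cd14 (-0.80, interval -1.89 to 0.30) and Mrc1 (-0.76, interval -2.16 to 0.63) had intervals that include 0. Without WT day 7 replicate 3, C1qa (-2.46, adjusted p = 0.0519) and C1qc (-1.96, adjusted p = 0.116) no longer passed and 3 genes were called. The C1qc call ended without any 1 of 11 arrays (adjusted p = 0.0581 to 0.116), which were all the arrays of the 4 groups other than KO untreated replicate 4, replicate 1 labelled KO day 7, WT untreated replicate 2 and WT day 7 replicates 1 and 2. The count was also 5 after replicates 1 and 2 labelled KO day 7, those with raised Il17rc, were removed. This interaction, the fall in KO and the untreated difference between genotypes share the KO untreated arrays.

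**Figure D2:**
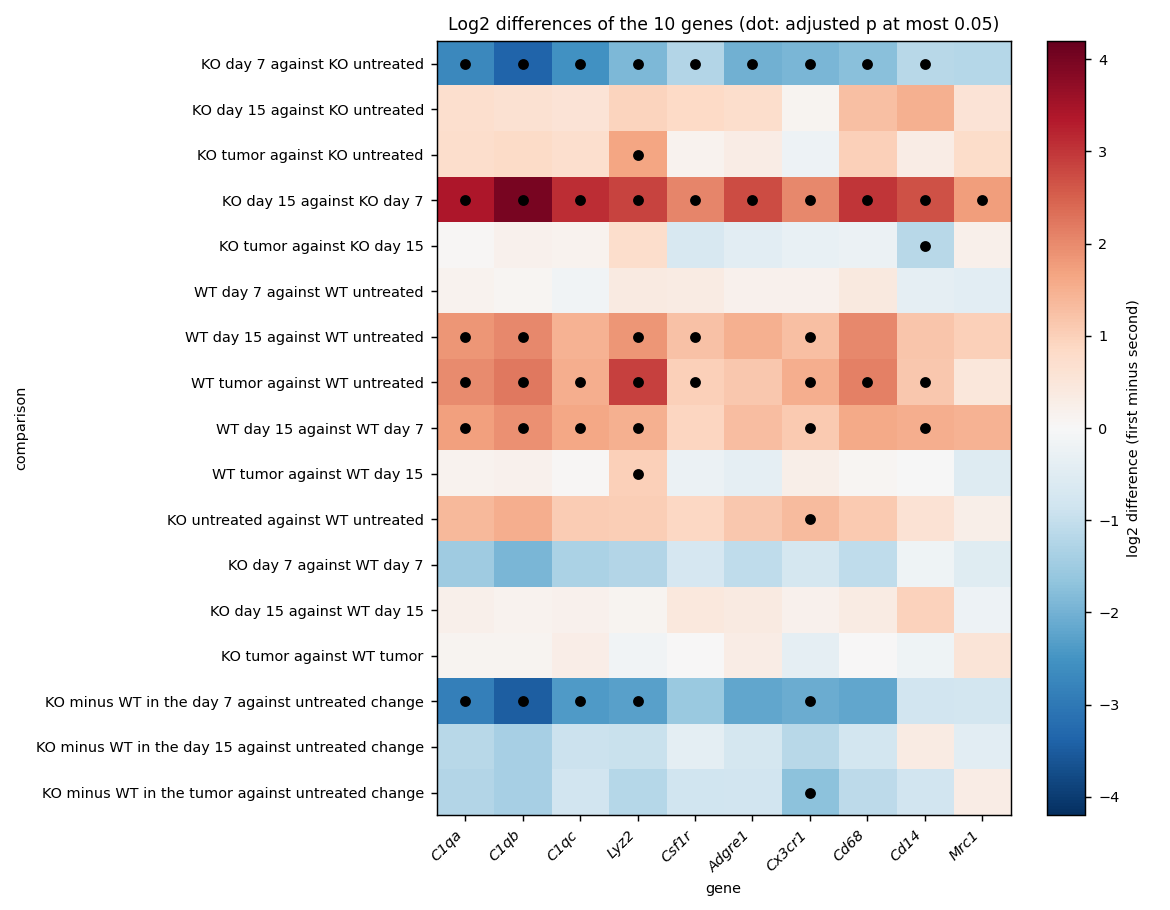
Log2 difference of the 10 genes (columns) in 17 comparisons (rows), as the first group minus the second, with a dot where the adjusted p was at most 0.05. The row for day 15 against day 7 in KO holds 10 dots, and the rows that set KO against WT at day 15 and in tumors hold 0.

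Between the untreated genotypes the levels were already unequal for Cx3cr1. It was higher in KO untreated, with 55, 49, 83 and 47, against 21, 24, 17 and 30 in WT untreated, a log2 difference of 1.34 ± 0.30 (adjusted p = 0.00723). No KO untreated array overlapped a WT untreated array. It was the only 1 of the 10 genes called, where 1.78% of all genes were higher, and it no longer passed once KO untreated replicate 3 was removed (1.16, adjusted p = 0.0548). On its dim second probe set, which ran from 7 to 12 over all arrays, the Cx3cr1 difference was 0.07 (adjusted p = 0.875), and its other calls ended too. A fit of only these 2 groups called 5 of the 10 genes, and array weights called 4. All 10 log2 differences were positive, with a median of 1.09 against 0.00 over all genes, and 7 had an unadjusted p under 0.05. The arrays did not overlap for 5 of the 10 (C1qa, C1qb, C1qc, Adgre1 and Cx3cr1), as for 5.21% of all genes in this direction.

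The C1q chains did not pass, although their untreated groups did not overlap. C1qb had 468, 423, 463 and 269 in KO untreated, against 133, 246, 66 and 157 in WT untreated (1.52 ± 0.53, adjusted p = 0.159). C1qa had a log2 difference of 1.35, with an interval of 0.40 to 2.30, and C1qc 1.07, with 0.16 to 1.98. Lyz2 came near the threshold (1.03 ± 0.29, adjusted p = 0.0549), and its groups met through KO untreated replicate 4 (777), which lay below WT untreated replicate 2 (953). Mrc1 showed the smallest difference (0.25, interval -0.74 to 1.23), with 190 to 208 in KO untreated and 94 to 242 in WT untreated. Ptprc, which encodes the pan-leukocyte protein CD45, was higher in KO untreated (2.23 ± 0.53, adjusted p = 0.0136), with 311 to 865 in KO untreated and 38 to 155 in WT untreated. T cell markers were higher for 4 of 8 measured, with summed intensities of 181 to 326 in KO untreated and 99 to 121 in WT untreated. Squamous markers summed to 100 to 162 in KO untreated, against 94 to 34452 in WT untreated. With the 7 arrays of high Krt5 left out, Cx3cr1 differed by 1.47 (adjusted p = 0.0206) and the median of the 10 genes was 0.99. The part of T cells in these differences was not tested.

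At day 7 the sign was turned. All 10 genes had negative log2 differences between arrays labelled KO day 7 and WT day 7, with a median of -1.06 against 0.00 over all genes. None passed by limma, where 0.287% of all genes were called in either direction, and 7 had an unadjusted p under 0.05. Lyz2 was nearest (-1.24 ± 0.29, adjusted p = 0.0521), with 421, 347, 367 and 275 on arrays labelled KO day 7, against 688, 484, 1691 and 889 in WT day 7. Its groups did not overlap. C1qb differed by -1.94 ± 0.53 (adjusted p = 0.108), and its groups overlapped because replicate 1 labelled KO day 7 (75) lay above WT day 7 replicate 2 (54). Removing replicate 1 labelled KO day 7 gave 2 calls, and removing WT day 7 replicate 1 or 2 gave 3 calls or 1 call.

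All 10 genes were higher in KO day 15 than on the arrays labelled KO day 7. All passed the test, where 12.4% of all genes rose, and the median log2 difference was 2.79 against -0.03 over all genes. C1qb had 702, 350, 542 and 1110 in KO day 15, against 75, 34, 32 and 20 on arrays labelled KO day 7 (3.99 ± 0.53, adjusted p = 3.03e-06). That is 15.8-fold higher. Lyz2 had 3565, 1755, 2245 and 3198 in KO day 15, against 421, 347, 367 and 275 on arrays labelled KO day 7 (2.83 ± 0.29, adjusted p = 1.03e-07). Csf1r had 126, 64, 82 and 175 in KO day 15, against 30, 15, 25 and 22 on arrays labelled KO day 7 (2.07 ± 0.34, adjusted p = 4.45e-05). Groups did not overlap in any of the 10 genes, where 13.8% of all genes had every KO day 15 array higher. The count was 10 without each single array in turn and without replicates 1 and 2 labelled KO day 7. The mannose receptor Mrc1 rose least (1.77 ± 0.48, adjusted p = 0.00716). Neutrophil markers also rose, for 6 of 10 measured, and summed to 3458 to 22299 in KO day 15, against 115 to 10703 on arrays labelled KO day 7. B cell markers rose for 6 of 7, with sums of 172 to 1781 in KO day 15, against 72 to 88 on arrays labelled KO day 7. T cell markers rose for 5 of 8, with 179 to 494 in KO day 15, against 106 to 113 on arrays labelled KO day 7. Smooth muscle markers fell for 6 of 7, to 7674 to 14141 in KO day 15, against 16751 to 31042 on arrays labelled KO day 7. The part of these cell types in the rise was not tested.

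Against KO untreated arrays, KO day 15 had no call among the 10 genes by limma. Of all genes, 0.807% were called in either direction, and 4 of the 10 had an unadjusted p under 0.05. The median log2 difference was 0.72 against -0.02 over all genes. Cd14 lay at the edge, with 1220, 1581, 1368 and 5950 in KO day 15, against 744, 810, 589 and 685 in KO untreated (1.5 ± 0.38, adjusted p = 0.0506). All KO day 15 arrays were above all KO untreated arrays, and replicate 4 stood far above the rest. Without KO day 15 replicate 1 or 3, 1 gene was called, and without replicate 2, 2 were. C1qa differed by 0.69, with an interval of -0.25 to 1.64, and Cx3cr1 by 0.11, with -0.49 to 0.72.

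In WT colons 5 of the 10 genes rose by day 15 relative to untreated, where 2.09% of all genes rose, and 10 of 10 had an unadjusted p under 0.05. The median log2 difference was 1.48 against -0.01 over all genes. Lyz2 had 3304, 2023, 1673 and 2790 in WT day 15, against 564, 953, 433 and 776 in WT untreated (1.87 ± 0.29, adjusted p = 0.000255). C1qa had 748, 561, 283 and 968 in WT day 15, against 154, 273, 96 and 169 in WT untreated (1.85 ± 0.46, adjusted p = 0.022). The lowest WT day 15 array, replicate 3, lay just above the highest WT untreated array, replicate 2, for C1qa. C1qb (2.01 ± 0.53, adjusted p = 0.0292), Cx3cr1 (1.28 ± 0.30, 0.0127) and Csf1r (1.25 ± 0.34, 0.0349) also rose.

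The WT day 15 calls depended on single arrays, other than that of Lyz2. Leaving out WT untreated replicate 1 gave 3 calls in place of 5, and leaving out WT untreated replicate 3 gave 2. Among WT day 15 arrays, leaving out replicate 1 gave 1 call, replicate 2 gave 3, replicate 3 gave 8 and replicate 4 gave 2. C1qb and Csf1r each lost their call without any 1 of 6 arrays (WT untreated replicates 1, 3 and 4 and WT day 15 replicates 1, 2 and 4), with adjusted p up to 0.102 and 0.129. C1qa lost it without WT untreated replicate 3 or WT day 15 replicates 1 or 4 (adjusted p = 0.0688 to 0.0751), and Cx3cr1 without WT day 15 replicate 1 (0.0555). Cd68 (2.02 ± 0.59, adjusted p = 0.051), C1qc (1.47 ± 0.45, 0.0614), Adgre1 (1.49 ± 0.47, 0.0719), Cd14 (1.16 ± 0.38, 0.0844) and Mrc1 (1.01 ± 0.48, 0.273) did not pass. Other leukocyte markers rose beside these genes, 2 of 7 for B cells (sums of 327 to 730 in WT day 15, against 83 to 100 in WT untreated) and 2 of 8 for T cells (156 to 378 in WT day 15, against 99 to 121 in WT untreated). Of 10 neutrophil markers, 1 rose, Fcgr4 (2.74 ± 0.48, adjusted p = 0.00106), while S100a8 (adjusted p = 0.0812) and S100a9 (0.131) did not pass. The neutrophil sums were 696 to 15319 in WT day 15, against 129 to 8690 in WT untreated. The smooth muscle sums were 7446 to 15149 in WT day 15 and 17399 to 22006 in WT untreated. The part of these cell types in the rise was not tested.

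Relative to WT day 7, 6 of the 10 genes rose at WT day 15 (C1qa, C1qb, C1qc, Lyz2, Cx3cr1 and Cd14), where 1.84% of all genes rose. The log2 differences lay between 0.92 and 1.92 over the 10 genes, with a median of 1.5 against -0.03 over all genes. Cd14 had 688, 1187, 731 and 1805 in WT day 15, against 262, 473, 295 and 375 in WT day 7 (1.53 ± 0.38, adjusted p = 0.0207). Its groups did not overlap. Lyz2 rose by 1.48 ± 0.29 (adjusted p = 0.00323) and was called without each single array. The count fell to 1 without WT day 7 replicate 1 or WT day 15 replicate 2, and to 2 without WT day 7 replicates 2 or 4 or WT day 15 replicates 1 or 4, and it was 0 with the 7 arrays of high Krt5 left out. Each C1q call was lost without any 1 of 6 arrays (WT day 7 replicates 1, 2 and 4 and WT day 15 replicates 1, 2 and 4, adjusted p = 0.0594 to 0.177). That of Cx3cr1 was lost without any 1 of 5 (the same ones but WT day 15 replicate 4, 0.0516 to 0.134), and that of Cd14 without WT day 7 replicate 1 or WT day 15 replicates 2 or 4 (0.0619 to 0.12). Neutrophil markers summed to 696 to 15319 in WT day 15, against 133 to 2651 in WT day 7. Of these, 1 of 10 was called, Fcgr4 (2.75 ± 0.48, adjusted p = 0.000988), while S100a8 (adjusted p = 0.0678) and S100a9 (0.162) did not pass. For T cells 1 of 8 markers rose, and for B cells 1 of 7. The part of these cell types in the result was not tested.

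Between KO and WT at day 15, 0 of the 10 genes were called by limma, where 0.222% of all genes were called. Cd14 had the largest difference and the only unadjusted p under 0.05 (0.96 ± 0.38, adjusted p = 0.345), with 1220 to 5950 in KO and 688 to 1805 in WT. C1qa differed by 0.20 (interval -0.75 to 1.14) and Lyz2 by 0.10 (interval -0.49 to 0.70). Same-numbered arrays deviated together here, and the count with replicate number as a block was also 0. The interactions with stage at day 15 had 0 calls by limma, where 0.0819% of all genes were called, and 2 of the 10 genes had an unadjusted p under 0.05, Cx3cr1 (-1.16 ± 0.42, adjusted p = 0.504) and Lyz2 (-0.92 ± 0.41, adjusted p = 0.617).

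In tumors, 1 of the 10 genes rose in KO and 8 rose in WT relative to untreated colon of the same genotype. Of all genes, 10.8% rose in KO tumors and 12.5% in WT tumors. The median log2 difference of the 10 genes was 0.73 in KO and 1.51 in WT, against 0.01 in KO and 0.02 in WT over all genes. Lyz2 rose in both. It had 3702 to 4899 (median 4102.5) in KO tumors, against 1418, 1670, 1756 and 777 in KO untreated (1.67 ± 0.27, adjusted p = 2.89e-05). It had 3252 to 5716 (median 4762) in WT tumors, against 564, 953, 433 and 776 in WT untreated (2.86 ± 0.27, adjusted p = 3.15e-09). In each genotype every tumor array was above every untreated array. Both Lyz2 calls held without each single array.

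The other WT calls were C1qb (2.21 ± 0.48, adjusted p = 0.00109), Cd68 (2.11 ± 0.54, 0.00447), C1qa (1.98 ± 0.42, 0.000881), C1qc (1.51 ± 0.41, 0.00654), Cx3cr1 (1.51 ± 0.27, 0.000118), Cd14 (1.14 ± 0.35, 0.0164) and Csf1r (1.0 ± 0.31, 0.0177). Cx3cr1 ran from 49 to 90 (median 63) in WT tumors, against 21, 24, 17 and 30 in WT untreated, without overlap. The Csf1r call ended without WT untreated replicate 1 (0.91, adjusted p = 0.0538), and the Cd14 call without WT untreated replicate 1 (1.0, adjusted p = 0.057) or 3 (1.03, adjusted p = 0.0562). Adgre1 (1.12 ± 0.43, adjusted p = 0.0554) and Mrc1 (0.46, interval -0.44 to 1.36) did not pass. In WT tumors 3 of 8 T cell markers (sums of 151 to 288 in WT tumors, against 99 to 121 in WT untreated), 2 of 7 B cell markers (141 to 668, against 83 to 100) and 3 of 10 neutrophil markers (1874 to 7788, against 129 to 8690) rose. All 7 smooth muscle markers fell there, to sums of 5524 to 15844 in WT tumors, against 17399 to 22006 in WT untreated. In KO tumors 3 of 10 neutrophil markers rose, with sums of 2697 to 7674 in KO tumors, against 177 to 203 in KO untreated, and 5 of 7 smooth muscle markers fell (1815 to 13167, against 15120 to 16264). T cell sums were 128 to 355 in KO tumors and 181 to 326 in KO untreated, and B cell sums 103 to 582 in KO tumors and 79 to 840 in KO untreated. Mast cell markers rose for 5 of 7 in KO tumors and 6 of 7 in WT tumors. The part of these cell types in the values of the 10 genes, Lyz2 of neutrophils among them, was not tested.

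In KO tumors C1qa ran from 212 to 986 (median 918), against 453, 424, 525 and 311 in KO untreated (0.75, interval -0.11 to 1.62, adjusted p = 0.24). KO tumor replicate 2 lay below all KO untreated arrays for C1qa, and the other 5 tumor arrays lay above them. Without it 3 genes were called. That array also had the lowest smooth muscle sum of its group (1815, against 6539 to 13167 on the other KO tumor arrays) and the highest squamous sum (3776, against 130 to 1249). The part of these tissues in its low values was not tested. Cx3cr1 had 33 to 91 (median 48.5) in KO tumors, against 55, 49, 83 and 47 in KO untreated (-0.21, interval -0.76 to 0.34).

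The difference between the genotypes' tumor changes passed the test for 1 of the 10 genes, Cx3cr1. The KO change minus the WT change was -1.72 ± 0.38 (adjusted p = 0.016), where 0.714% of all genes were called in that direction. It no longer passed once KO untreated replicate 3 was removed (-1.54, adjusted p = 0.0713) and without the 7 arrays of high Krt5 (-1.75, adjusted p = 0.058). The other 9 genes did not pass, and 4 of the 10 had an unadjusted p under 0.05, among them Lyz2 (-1.19 ± 0.38, adjusted p = 0.203). Between KO and WT tumors directly, 0 of the 10 genes were called by limma and 0 had an unadjusted p under 0.05, where 0.0526% of all genes were called. C1qa differed by 0.12 (interval -0.65 to 0.89), Lyz2 by -0.16 (interval -0.65 to 0.32) and Mrc1 by 0.55 (interval -0.25 to 1.36).

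In WT tumors Lyz2 was also above its day 15 level. It rose by 0.99 ± 0.27 (adjusted p = 0.00718), to 3252 to 5716 in WT tumors, against 3304, 2023, 1673 and 2790 in WT day 15, and was the 1 gene of the 10 called, where 12.2% of all genes rose. Only WT tumor replicate 6 (3252) lay inside the WT day 15 range. In KO the log2 difference of Lyz2 was 0.72 ± 0.27 (adjusted p = 0.0636), with every KO tumor array (3702 to 4899) above every KO day 15 array (1755 to 3565). The other 9 genes had log2 differences between -0.55 and 0.23 in WT, with a median over all 10 of 0.07. In KO, Cd14 fell by 1.18 ± 0.35 (adjusted p = 0.0213), with 731 to 1304 (median 800) in KO tumors, against 1220, 1581, 1368 and 5950 in KO day 15, where 6.05% of all genes fell. Without KO day 15 replicate 4 the Cd14 difference was -0.64 (adjusted p = 0.171).

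The Lyz2 probe set is of a kind that can bind near-identical genes, among which is Lyz1, the lysozyme of Paneth cells. Lyz1's own probe set rose in tumors, with 21 to 56 in KO tumors against 15 to 16 in KO untreated (0.87 ± 0.20, adjusted p = 0.00175). In WT it ran from 18 to 33 in tumors, against 12 to 15 in untreated arrays (0.81 ± 0.20, adjusted p = 0.00316). All 5 Paneth cell markers measured rose in tumors of both genotypes, and they summed to 3594 to 10366 in KO tumors, against 69 to 76 in KO untreated, and to 1706 to 13388 in WT tumors, against 60 to 76 in WT untreated. The part of Lyz1 in the Lyz2 values was not tested.

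Within single arrays C1qa kept nearly the same distance from C1qb and from C1qc. The log2 difference between C1qa and C1qc had an SD of 0.20 over the 36 arrays, and that between C1qa and C1qb 0.27. That between C1qb and C1qc was 0.39, close to the smallest of pairs beyond the C1q genes (0.41 for C1qa and Cd68, 0.41 for C1qc and Adgre1). The genes themselves had SDs of 1.34 (C1qa), 1.56 (C1qb) and 1.23 (C1qc). Pearson correlations over the arrays were 0.995 for C1qa and C1qb and 0.992 for C1qa and C1qc. All arrays share these groups and their hybridization, so the values describe the arrays and are given with no p. C1qb moved furthest, since on arrays labelled KO day 7 it lay 0.59 log2 units below the mean of the other 9 genes on the same array, against 0.95 above it on KO untreated arrays. On arrays labelled KO day 7 some of the other genes, such as Cx3cr1, lay near the array medians of 14 to 16. The distance of Csf1r was -1.36 there, against -2.18 on KO untreated arrays. The part of dim signal in these distances was not tested. Lyz2 lay 4.05 above the mean of the other 9 genes in KO tumors and 4.31 above it in WT tumors, against 2.89 to 3.08 in the earlier KO groups and 2.90 to 3.26 in the earlier WT groups. These distances between probe sets carry the probes' own brightness, and only their change between groups is of use.

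**Figure D3:**
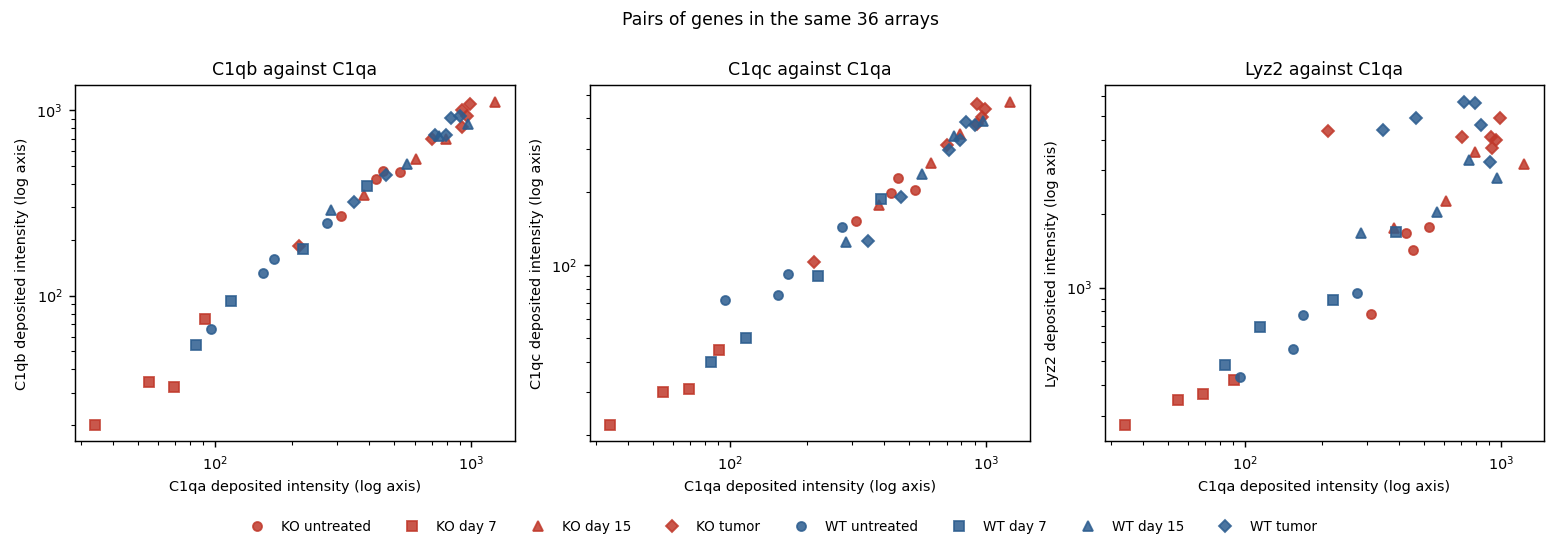
Deposited intensities (log axes) of C1qb, C1qc and Lyz2 against C1qa on the 36 arrays, with colours for genotype and symbols for stage. C1qb and C1qc follow C1qa along a narrow band, while most tumor arrays (diamonds) lie above the other stages for Lyz2 (3252 to 5716, against 1673 to 3565 at day 15).

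Cd14 and Lyz2 were the genes least like the rest, with correlations of 0.767 and 0.854 with the mean of the other 9, and C1qa the most like it (0.990). Outside the 10 genes, the most similar patterns over the 36 arrays were those of Tyrobp and Fcer1g (r = 0.983 each), which encode signalling adaptors of myeloid receptors. Next were Ms4a6c (0.976), Ms4a7 (0.975), Ms4a6b (0.974), the Fc receptor Fcgr3 (0.973), the leukocyte tetraspanin Cd53 (0.971), Mpeg1 (0.969), which encodes the pore-forming protein perforin-2 of macrophages, Aif1 (0.961), which encodes the macrophage protein IBA1, and Fxyd5 (0.959). These are descriptions over arrays that share their groups.

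A wider list held 29 other measured monocyte and macrophage genes. On arrays labelled KO day 7, 7 of 29 were lower than in KO untreated (6.55% of all genes) and 0 higher (median -0.58), among them Ms4a7 (-3.63 ± 0.57, adjusted p = 4.35e-05), Aif1 (-2.55 ± 0.45, 0.000215), Fcer1g (-2.70 ± 0.59, 0.0023) and Tyrobp (-2.46 ± 0.57, 0.00358). From the arrays labelled KO day 7, 19 of 29 rose by KO day 15 and 2 fell (12.4% and 12.8% of all genes, median 1.55). In WT day 15 against untreated, 11 rose (2.09% of all genes, median 1.07), among them Aif1 (2.33 ± 0.45, adjusted p = 0.00325) and Clec7a, the receptor for fungal beta-glucans (2.32 ± 0.49, 0.0065). In tumors against untreated, 4 of 29 rose and 2 fell in KO (median 0.45), where 10.8% of all genes rose and 9.91% fell, so these shares are near those of all genes. In WT 14 rose and 1 fell (median 0.54), where 12.5% of all genes rose and 10.1% fell. Apoe, which encodes a lipid carrier made by macrophages and other cells, rose in both, by 1.56 ± 0.40 in KO (adjusted p = 0.00449) and by 2.06 ± 0.40 in WT (0.000282). Between untreated genotypes 1 of 29 was higher in KO (1.78% of all genes), Aif1 (2.16 ± 0.45, adjusted p = 0.00406). Aif1 and Ms4a7 were also called in the day 7 interaction (-3.08 ± 0.64, adjusted p = 0.00553, and -3.89 ± 0.81, 0.00522).

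**Figure D4:**
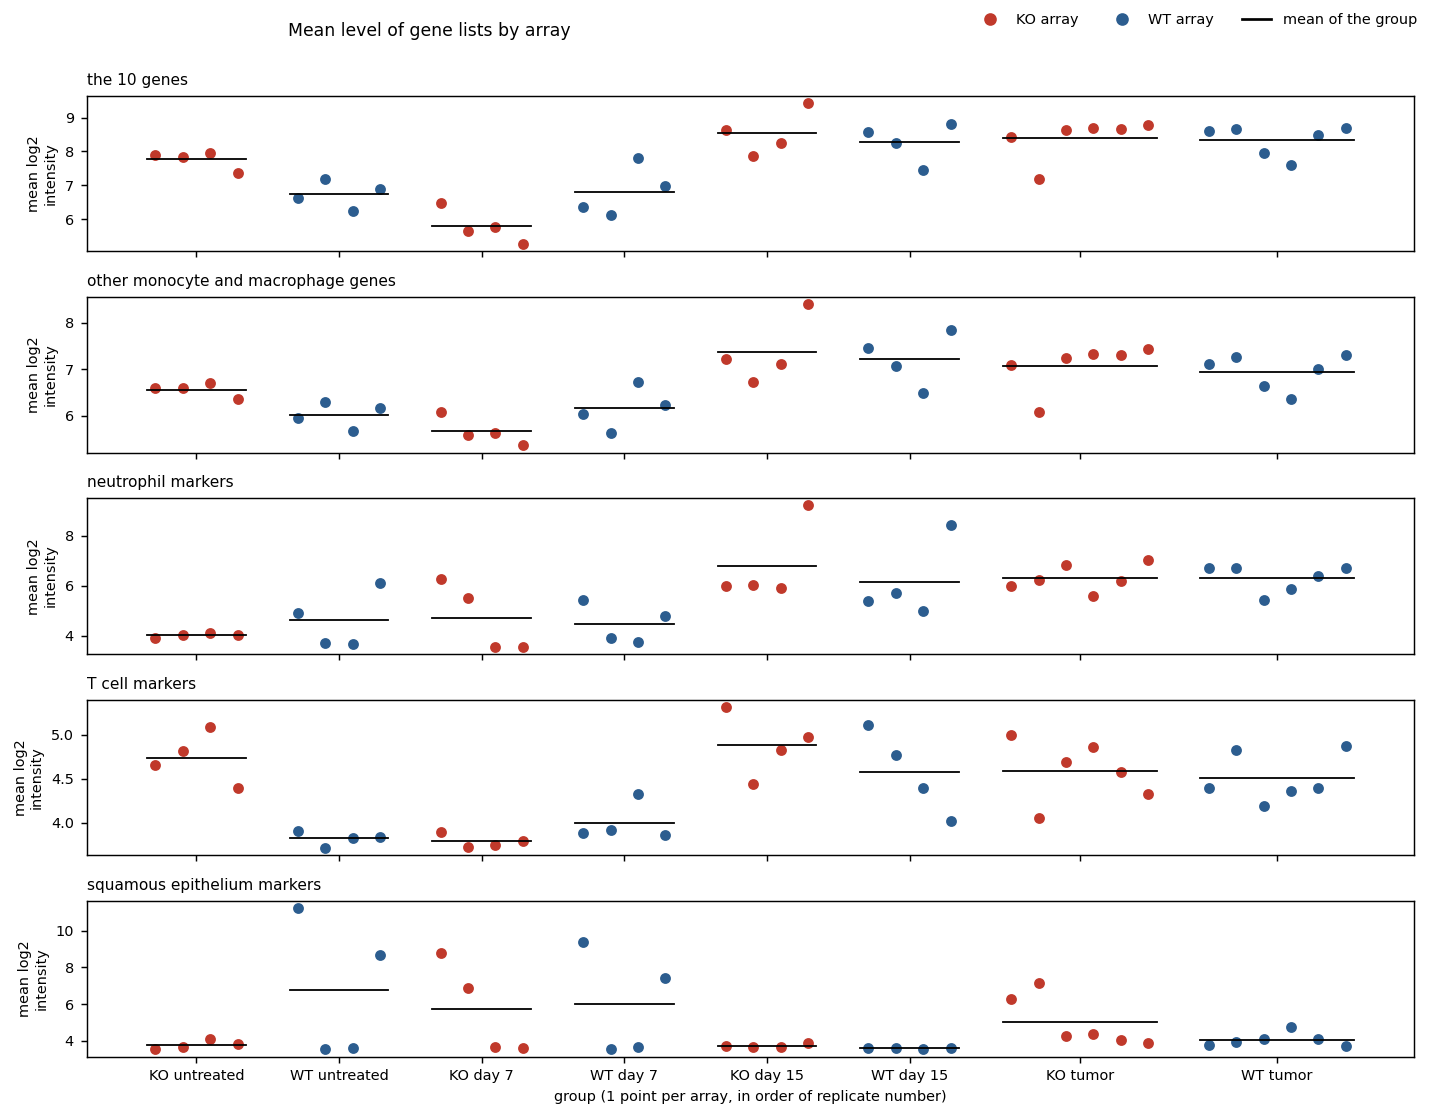
Mean log2 intensity of the 10 genes and of 4 other gene lists on each array, with groups in order of stage and KO left of WT, and bars at group means. The 10 genes and the other monocyte and macrophage genes move together, whereas squamous markers are high on single untreated, day 7 and KO tumor arrays and neutrophil markers are highest on replicate 4 of each day 15 group.

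Among genes of long-lived resident macrophages, several were lower in WT tumors than at WT day 15. Of 14 measured, which partly belong to the wider list too, 7 were lower and 0 higher in WT tumors than at WT day 15 (median -0.49), where 7.76% of all genes fell. Among them were Cd163, the haemoglobin scavenger receptor (-1.66 ± 0.43, adjusted p = 0.0051), Folr2, a folate receptor (-1.10 ± 0.30, 0.00773), Cd209f, a C-type lectin (-0.67 ± 0.17, 0.0048), and Gas6, a ligand of receptors that take up dying cells (-0.82 ± 0.20, 0.00314). In KO tumors against KO day 15 their median was -0.24. Whether the genotypes differ in this was not tested. Of 10 monocyte genes measured, only Plac8 was lower on arrays labelled KO day 7 than in KO untreated (-0.48 ± 0.11, adjusted p = 0.00393, 6.55% of all genes). The next by p there was Ms4a4c (-1.28 ± 0.46, adjusted p = 0.0617). In KO day 15 against arrays labelled KO day 7, 7 of the 10 rose (12.4% of all genes, median 2.30). Among them were Clec4e, a receptor for mycobacterial glycolipid (4.59 ± 0.69, adjusted p = 1.52e-05), and Ccr2, the receptor that brings monocytes out of the bone marrow (1.88 ± 0.40, 0.000692). In KO tumors 3 of the 10 were lower than at KO day 15 (6.05% of all genes), among them Clec4e (-2.37 ± 0.63, adjusted p = 0.011). Against KO untreated, Chil3 (4.46 ± 1.04, adjusted p = 0.00211), Clec4e (2.27 ± 0.63, 0.00894) and Ifitm6 (2.63 ± 0.89, 0.0319) were higher in KO tumors (10.8% of all genes). Plac8 was lower there (-0.62 ± 0.10, adjusted p = 4.62e-05, 9.91% of all genes). Chil3 (4.34 ± 1.04, adjusted p = 0.00259), Clec4e (2.02 ± 0.63, 0.0196) and Ifitm6 (2.49 ± 0.89, 0.0403) also rose in WT tumors against WT untreated (12.5% of all genes). Of these monocyte genes only Ccr2 rose in WT day 15 against untreated (1.56 ± 0.40, adjusted p = 0.0225), where 2.09% of all genes rose. The next by p was Ms4a4c (1.36 ± 0.46, adjusted p = 0.0921).

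Of 9 genes listed under early complement, 7 were measured. They include Cfp, of the alternative pathway, and C1qbp, so the counts and medians are not those of the C1q cascade alone. On arrays labelled KO day 7, 3 were lower than in KO untreated (6.55% of all genes, median -1.43), namely C2 (-3.04 ± 0.40, adjusted p = 3.46e-06), C1ra (-1.51 ± 0.43, 0.0186) and C4b (-1.62 ± 0.52, 0.0356). C1ra encodes the protease C1r, which activates C1s, and C4b and C2 encode components that C1s then cleaves. By KO day 15, 5 of 7 were higher than on arrays labelled KO day 7 (12.4% of all genes, median 1.68), among them Cfp, properdin, which stabilizes the alternative pathway (3.12 ± 0.56, adjusted p = 0.000121). In WT day 15 against untreated, 4 rose (2.09% of all genes, median 1.58), C4b the most (2.88 ± 0.52, adjusted p = 0.00135). C2 was higher in KO untreated than in WT untreated (3.41 ± 0.40, adjusted p = 9.58e-07), and its changes differed between the genotypes at day 7 (-3.57 ± 0.57, adjusted p = 0.000205) and in tumors (-3.45 ± 0.52, 0.000216).

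Of the 6 ligands that act on these receptors or on monocytes, all were measured. Csf1, the main growth factor for Csf1r, rose in KO day 15 against arrays labelled KO day 7 (1.36 ± 0.30, adjusted p = 0.000998) and in WT tumors against untreated (1.06 ± 0.27, 0.0044). Il34, its other ligand, ran from 10 to 39 and was called in no comparison described. Cx3cl1, which encodes fractalkine, fell in tumors of both genotypes against untreated, by 1.15 ± 0.24 in KO (adjusted p = 0.000696) and by 0.73 ± 0.24 in WT (0.0258). Its receptor Cx3cr1 rose in WT tumors and had an interval of -0.76 to 0.34 in KO tumors, as given above. Ccl7, a monocyte chemokine, followed the pattern of the 10 genes in KO, lower on arrays labelled KO day 7 than in KO untreated (-2.79 ± 0.42, adjusted p = 2.39e-05) and higher in KO day 15 than on those arrays (2.92 ± 0.42, 9.02e-06). Ccl2, another, rose in KO day 15 against arrays labelled KO day 7 (2.30 ± 0.50, adjusted p = 0.00102) and in KO tumors against KO untreated (1.42 ± 0.46, 0.025).

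Some partners of Cd14 in the response to lipopolysaccharide rose with it in KO day 15. Of 9 measured, 4 rose in KO day 15 against arrays labelled KO day 7 (12.4% of all genes, median 0.54), Tlr4, the signalling receptor, by 1.02 ± 0.20 (adjusted p = 0.000414), Ly96, its co-receptor MD-2, by 0.54 ± 0.16 (0.0139), Tlr2 by 1.06 ± 0.34 (0.0217) and the adaptor Myd88 by 0.55 ± 0.19 (0.0278). In KO tumors against KO day 15, Tlr4 (-0.60 ± 0.19, adjusted p = 0.027) and the inhibitor Tnfaip3 (-0.92 ± 0.25, 0.013) fell. Of 14 macrophage activation genes, 6 rose in KO day 15 against arrays labelled KO day 7 (median 1.27, with the same 12.4% of all genes), with Il1b, which encodes the cytokine interleukin-1 beta, at 5.17 ± 0.85 (adjusted p = 4.35e-05). In tumors against untreated, 7 of 14 rose and 1 fell in KO (10.8% and 9.91% of all genes), and 4 rose and 1 fell in WT (12.5% and 10.1% of all genes). Mmp12, the macrophage elastase, rose by 3.29 ± 0.54 in KO (adjusted p = 4.36e-05) and by 3.49 ± 0.54 in WT (1.81e-05), and Retnla, a product of alternatively activated macrophages, fell by 2.61 ± 0.61 in KO (0.002) and by 2.42 ± 0.61 in WT (0.00371). Of 11 lysosome and phagocytosis genes, 3 rose in KO tumors (10.8% of all genes) and 4 in WT tumors (12.5% of all genes), with Lamp2, a lysosomal membrane protein, at 1.05 ± 0.14 in KO (adjusted p = 2.72e-06) and 0.95 ± 0.14 in WT (1.08e-05).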

How the data were processed

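RNA of 36 colon samples was measured on Affymetrix HT MG-430 PM arrays, per the labels. The deposited table gives 1 intensity per probe set and array on a linear scale, and the authors' normalization is not given in the sources used here. Values were used as log2(intensity + 1) after quantile normalization in limma 3.58.1 (R 4.3.3), with 8 group means and an intensity trend, and p-values were adjusted by Benjamini-Hochberg over 17097 genes for each of 17 comparisons, at a threshold of 0.05. Each gene was represented by its probe set with the highest mean; of 45037 probe sets, 28898 had 1 symbol, 551 several and 15588 none, and the last 2 kinds were left out. The fit was tested on simulated data. Members and gene lists were chosen with earlier results of these data known. All 10 members were described, and of each list up to 4 called genes with the smallest p per comparison. Same-numbered arrays deviated together in every pair only for WT day 7 against WT untreated (r = 0.165 to 0.397) and KO against WT at day 15 (r = 0.173 to 0.8). Alternatives were other pseudocounts, scalings, filters, probe sets, fits, blocks and left-out arrays. The number of arrays limits the precision.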

Additional observations from a re-analysis of the deposited data

Results flagged for a closer look

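Values that stood apart within their group were found for 8 of the 80 pairs of a gene and a group by Dixon's test, which chance gives for about 1 in 20 groups. KO tumor replicate 2 was the low array in 5 of them, with an intensity of 212 for C1qa, 185 for C1qb, 103 for C1qc, 26 for Csf1r and 43 for Adgre1. The other 3 concerned Cd68, which was low on KO untreated replicate 4 (64), high on replicate 1 labelled KO day 7 (51) and high on WT untreated replicate 2 (83).

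A difference between the genotypes' changes was found by an interaction test for 6 values. At day 7 against untreated, the KO change minus the WT change was -2.86 for C1qa, -3.46 for C1qb, -2.39 for C1qc, -2.27 for Lyz2 and -2.08 for Cx3cr1 on the log2 scale. In tumors against untreated it was -1.72 for Cx3cr1.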

How the results depend on the processing

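Of the 48 called values of the 10 genes, 29 passed without each single array in turn and 23 under every alternative tried, and 7 of the 17 counts of called genes stayed within 1.5 times under every setting. Where a count or call changed, the cause was not tested, other than that leaving arrays out leaves fewer samples.

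With single arrays left out in turn, the number of the 10 genes called ran from 6 to 9 for KO day 7 against untreated, 0 to 2 for KO day 15 against untreated, 1 to 3 for KO tumor against untreated, 0 to 1 for KO tumor against day 15, 1 to 8 for WT day 15 against untreated, 6 to 9 for WT tumor against untreated and 1 to 8 for WT day 15 against day 7. It ran from 0 to 2 between untreated genotypes, 0 to 3 between genotypes at day 7, 3 to 7 for the day 7 interaction and 0 to 1 for the tumor interaction.

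A pseudocount of 16 gave 1 call for KO day 15 against untreated. Centring each array on its median gave 2 between untreated genotypes and 1 between genotypes at day 7. No normalization gave 1 for KO day 15 against untreated and 1 between genotypes at day 7. Testing only genes with a mean of at least 16 gave 1 for KO day 15 against untreated, 2 for KO tumor against day 15, 2 between untreated genotypes and 1 at day 7. Fits of only the groups compared gave 1 for WT day 15 against untreated, 0 for WT day 15 against day 7 and 5 between untreated genotypes. Array weights gave 1 for KO day 15 against untreated, 6 for KO tumor against untreated, 8 for WT day 15 against untreated, 4 between untreated genotypes, 7 at day 7, 9 for the day 7 interaction and 2 for the tumor interaction. The letter of the sample titles as a block gave 0 for KO tumor against day 15, 1 for WT day 15 against untreated and 5 for WT tumor against untreated. Without the 7 arrays of high Krt5 there were 1 for KO day 15 against untreated, 2 for WT day 15 against untreated, 0 for WT day 15 against day 7, 1 between genotypes at day 7 and 0 for the tumor interaction. Without the arrays numbered 4 at day 15 there were 2 for WT day 15 against untreated and 3 for WT day 15 against day 7. With the dim second probe set of Cx3cr1, which ran from 7 to 12, there were 0 between untreated genotypes, 1 at day 7 and 0 for the tumor interaction, and its day 7 interaction was 0.00915 in place of -2.08.

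With the replicate block, a paired fit by replicate number, 8 genes were called for KO day 7 against untreated and 7 for WT tumor against untreated, and the other counts were those given above. Genes near the array medians of 14 to 16, such as Cx3cr1 on arrays labelled KO day 7, are limited by dim signal.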
